A study of Mus musculus with 2 samples.

Results

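Plasmacytoid dendritic cells were followed among the immune cells of tumours from ovariectomised mice, as the barcodes of 2 single-cell RNA libraries that carried their marker RNAs. A barcode was a member if it held 200 or more genes, 3 or more unique molecular identifiers (UMIs, each 1 counted RNA molecule) of Siglech and 2 or more UMIs of Tcf4, Ccr9 and Runx2 together. It also had to hold at most 5 UMIs of C1qa and C1qb, at most 1 of Cd3e, Cd3d and Cd3g, and at most 3 of Cd79a, which mark macrophages, T cells and B cells. This gave 98 members of 5765 barcodes in the E2 library and 30 members of 3490 barcodes in the placebo library, 128 of 9255 in all. The E2 library came from C57BL6\J mice that had been ovariectomised and given E2 (estradiol, the principal estrogen of the ovary), and the placebo library from C57BL6\J mice that had been ovariectomised and given placebo. In both, live cells with the pan-leukocyte surface protein CD45 were sorted from dissociated tumours and their RNA was sequenced from the 3′ end in droplets (10x Genomics). What kind of tumour it was, how much E2 was given and for how long, and how many mice stand behind a library were not given in the sources used here. With 1 library per group, no difference below has a replicate check and no test or p-value was computed. The 95% intervals cover counting error only.

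Plasmacytoid dendritic cells are bone marrow-derived cells with a lymphoid-looking gene program. They sense viral and self nucleic acids in endosomes through Toll-like receptors 7 and 9 and are known as the strongest producers of type I interferon, while they present antigen less well than conventional dendritic cells. In tumours they are often described as poorly activated. Their identity is set by the E-box-binding transcription factor TCF4, and estradiol is known from mouse and human work to act on their interferon response through estrogen receptor alpha.

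Promoter stretches of 4 genes that recur below are shown first, from RefSeq (build GRCm38.p6), each running from 250 bases before to 50 bases after a gene's start, 5′ to 3′ on the gene's own strand. Siglech (chr7:55767934-55768233, + strand) is the receptor that chose the cells, and Slpi (chr2:164356458-164356757, − strand) had the largest log2 ratio of E2 over placebo among the named genes found in most E2 members. Capitals in this first pair mark E-boxes (CANNTG), the core motif that TCF4 and many related factors bind.
Siglech: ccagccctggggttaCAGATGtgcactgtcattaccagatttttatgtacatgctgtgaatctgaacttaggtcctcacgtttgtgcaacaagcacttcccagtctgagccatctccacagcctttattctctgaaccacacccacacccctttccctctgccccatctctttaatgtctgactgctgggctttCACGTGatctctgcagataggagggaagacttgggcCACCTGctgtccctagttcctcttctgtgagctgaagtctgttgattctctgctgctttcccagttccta
Slpi: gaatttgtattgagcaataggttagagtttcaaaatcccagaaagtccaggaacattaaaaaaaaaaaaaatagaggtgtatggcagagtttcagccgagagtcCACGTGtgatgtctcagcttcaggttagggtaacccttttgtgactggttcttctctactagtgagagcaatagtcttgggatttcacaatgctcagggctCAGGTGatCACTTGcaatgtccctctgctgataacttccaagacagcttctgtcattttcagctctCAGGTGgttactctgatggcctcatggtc
Isg15 (chr4:156200769-156201068, − strand) had the lowest log2 ratio of the type I interferon list, and Bst2 (chr8:71537423-71537722, − strand), a member of that list which marks these cells, stood at nearly the same level in both libraries. Capitals here mark the interferon-stimulated response element (GAAA, any 2 bases, GAAA), a motif through which interferon turns genes on. Its matches overlap one another, 3 in Isg15 and 2 in Bst2.
Isg15: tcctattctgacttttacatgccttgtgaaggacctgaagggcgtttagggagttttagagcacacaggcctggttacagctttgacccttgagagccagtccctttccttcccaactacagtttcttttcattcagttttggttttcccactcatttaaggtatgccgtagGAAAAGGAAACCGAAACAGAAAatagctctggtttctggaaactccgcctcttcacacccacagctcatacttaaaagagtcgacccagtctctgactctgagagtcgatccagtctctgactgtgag
Bst2: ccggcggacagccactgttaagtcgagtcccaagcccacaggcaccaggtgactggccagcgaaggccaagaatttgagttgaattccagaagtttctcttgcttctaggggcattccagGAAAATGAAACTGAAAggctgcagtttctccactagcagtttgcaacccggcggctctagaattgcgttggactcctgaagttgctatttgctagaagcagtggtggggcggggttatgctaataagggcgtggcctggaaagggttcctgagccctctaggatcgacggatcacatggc
Both strands were searched. An E-box of these letters stood in 72.3% of all 32851 promoters of the table, the interferon-stimulated element in 3.44% and the palindromic estrogen response element (GGTCA, any 3 bases, TGACC) in 0.0700%. Of the 20 measured genes of the type I interferon list, 16 matched the table with 20 promoters, of which 12 (60%) held the interferon-stimulated element. Among the 12 highest genes in E2 members, 11 matched with 11 promoters, of which 8 held an E-box, 0 the interferon-stimulated element and 0 the estrogen element. Among the 12 lowest, 9 matched with 13 promoters, of which 11 held an E-box, 1 the interferon-stimulated element and 0 the estrogen element. These are matches of letters in short windows, not sites.

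The E2 library was the deeper one, with 52628133 UMIs and a median of 8108 UMIs per kept barcode, against 24545595 UMIs and 5158.5 in the placebo library. The members did not share that gap, with medians of 9686.5 UMIs and 3037 genes in E2 and 9490 UMIs and 3115.5 genes in placebo, and 1003811 and 280136 UMIs in all. No member barcode was among the 95 barcode sequences that occur in both libraries. Mitochondrially encoded genes had 0 UMIs in both libraries, so that measure of cell quality could not be used. The barcodes with the highest doublet scores of Scrublet, 266 in E2 and 97 in placebo, included 8 E2 and 1 placebo members, which were kept.

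Plasmacytoid members were about 2-fold more frequent in the E2 library, and so were most other dendritic cells. They made up 1.70% of E2 barcodes (exact 95% interval 1.38 to 2.07%) and 0.860% of placebo barcodes (0.581 to 1.22%), a ratio of 1.98 (1.30 to 3.08). Type 1 conventional dendritic cells (cDC1, 3 or more UMIs of Xcr1 and Clec9a), which present antigen to CD8 T cells, were 5.12% and 1.58% of barcodes. Type 2 cells (cDC2, 3 or more UMIs of Cd209a and 10 or more of H2-Ab1), which present to CD4 T cells, were 4.39% and 2.58%. The mature dendritic gate (5 or more UMIs of Ccr7 and Fscn1) did not share this direction, at 0.815% and 1.003%. Within the 4 dendritic gates together, the plasmacytoid share was alike in both libraries, 98 of 693 (14.1%, 11.6 to 17.0%) in E2 and 30 of 210 (14.3%, 9.85 to 19.8%) in placebo, a ratio of 0.990 (0.652 to 1.54). A share of a sorted pool also moves with every other class in the sort, and T cells were 15.1% of E2 and 29.3% of placebo barcodes.

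**Figure D1:**
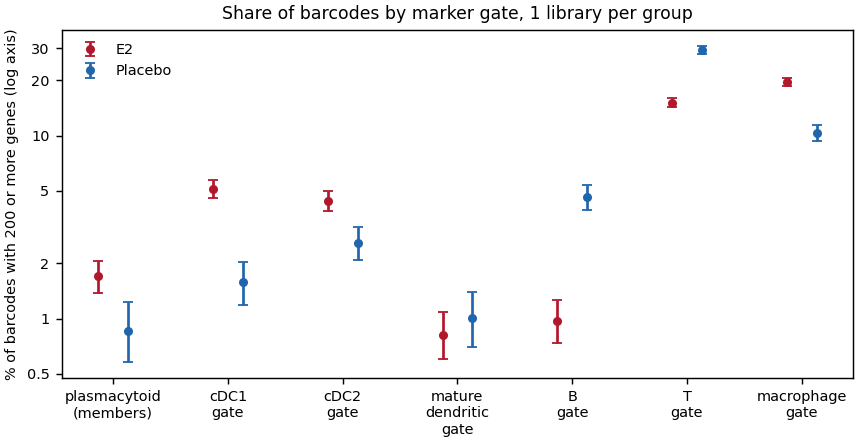
Share of barcodes in each marker gate (log axis) in the E2 and placebo libraries, with exact 95% intervals for counting error only. The plasmacytoid members stand at 1.70% in E2 and 0.860% in placebo, and the macrophage and both conventional dendritic gates are higher in E2 while the B and T gates are lower.

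Most but not all of the barcodes carried the further markers of the label. Siglech, a sialic acid-binding receptor, had 3 to 53 UMIs per E2 member (median 24) and 3 to 56 per placebo member (median 25), as the rule requires at least 3. Of markers that the rule did not use, Bst2, an interferon-inducible surface protein that tethers virus particles, had a median of 36 UMIs in E2 and 32 in placebo members. Cox6a2, a subunit of cytochrome c oxidase, was present in 81 of 98 E2 members and 26 of 30 placebo members. Of members with 12 or more Siglech UMIs, Cox6a2 was found in 79 of 84 in E2 and 24 of 24 in placebo. The 10 E2 and 3 placebo members with under 8 Siglech UMIs had no Cox6a2 UMI at all.

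Those low-Siglech barcodes also lacked other genes of the class. Among members with 2000 or more UMIs, 9 in E2 and 2 in placebo had under 8 Siglech UMIs, and they held 0 UMIs of Klk1 (a kallikrein protease), Ly6d (a lymphoid-associated surface protein) and Mzb1 (a secretory-pathway chaperone of B lineage and plasmacytoid cells). They were not alike among themselves. Cd74, the MHC class II invariant chain, had 0 to 675 UMIs per barcode in the 9 of E2 (median 139), and 3 and 291 UMIs in the 2 of placebo. S100a4, a calcium-binding protein of myeloid and memory cells, had a median of 8 UMIs in E2, and 2 and 97 UMIs in placebo. Bst2 summed to 973 CPM (UMIs scaled to the same total for each library and class) in E2 and 1899.8 CPM in placebo, below the 3407 and 3495 CPM over all members but above the cDC1 gate, at 120.1 and 90.6 CPM. Irf8 summed to 451 and 826 CPM in them, against 2141 and 2485 CPM over all members. Just inside the threshold, the 6 E2 and 3 placebo members with 3 to 5 Siglech UMIs had a median of 6.5 and 14 Bst2 UMIs. Just outside it, 8 E2 and 4 placebo barcodes with 2 Siglech UMIs met the other limits and had 12 and 11.5. For the low-Siglech barcodes the markers were thus mixed, with Bst2 present and Cox6a2, Klk1, Ly6d and Mzb1 at 0. A core of 85 E2 and 26 placebo members with 2000 or more UMIs, 8 or more of Siglech, under 10 of the neutrophil genes S100a8 and S100a9 and at most 2 of Xcr1 was set after the data were seen, and results are given in it where they move.

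**Figure D2:**
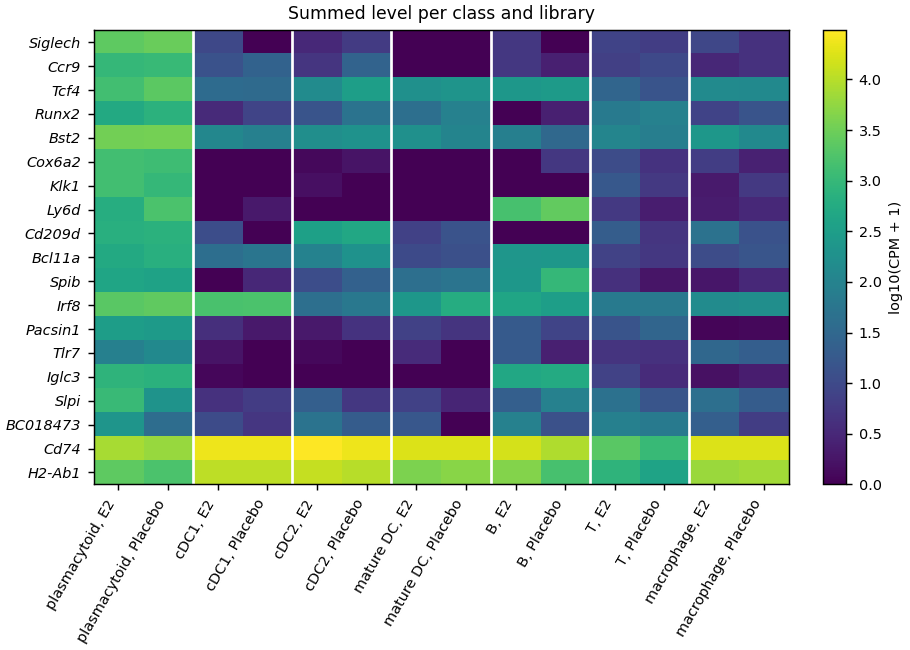
Summed level, as log10(CPM + 1), of the rule's genes, other plasmacytoid genes and genes described below, in each class with E2 left of placebo. Siglech, Cox6a2, Klk1 and Pacsin1 are brightest in the plasmacytoid columns, Ly6d and Iglc3 are shared with the B gate, and Cd74 and H2-Ab1 are lowest in the T gate.

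Against all other barcodes of their own library, 201 of 5337 genes with 30 or more UMIs in the members (3.77%) were at least 2-fold higher in members in both libraries and 106 (1.99%) at least 2-fold lower, on the scale log2((CPM + 50)/(CPM + 50)). The shares were 5.94% higher and 1.54% lower against the cDC1 gate, 4.59% and 1.91% against the cDC2 gate, 6.9% and 2.55% against the mature dendritic gate and 4.91% and 1.48% against the B gate. Since the cells were chosen by some of these genes, this is a description. The leading gene was Cox6a2 at 1329.9 CPM in E2 members and 1232 CPM in placebo members, against 2.83 and 2.43 CPM in the other barcodes. Klk1 followed with 1351 CPM in E2 members and 964 CPM in placebo members, against 2.27 and 1.90 CPM. The other leading genes included the C-type lectin gene Cd209d, the sodium pump subunit Atp1b1, the inhibitory collagen receptor Lair1, and Bcl11a and Irf8, transcription factors of plasmacytoid development. Irf8 was also high in the cDC1 gate, at 1556 and 1671 CPM, beside 2141 and 2485 CPM in members. Cd209d was also high in the cDC2 gate, at 349 and 481 CPM, beside 662 and 739 CPM in members. Atp1b1 reached 79.9 CPM in E2 and 442 CPM in placebo in the B gate, beside 550 and 682 CPM in members.

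The lymphoid traits of these cells were plain in both libraries. The lymphoid list was higher in members than in the cDC1 gate by a median log2 ratio of 2.46 in E2 and 2.32 in placebo (0.19 and 0.20 over all genes). Dntt, the terminal transferase of antigen receptor rearrangement, stood at 118 CPM in E2 members and 178 CPM in placebo members and was at 0 in the cDC1, cDC2, mature dendritic and B gates of both libraries. Iglc3, an immunoglobulin light chain constant gene, was 829 and 746 CPM in members, 0.185 CPM and 0 in the cDC1 gate and 497 and 558 CPM in the B gate. Rag1, the recombinase, had no UMI in members. Near-identical light chain genes can share reads, so which of Iglc1, Iglc2 and Iglc3 was read is uncertain. MHC class II genes were lower than in the cDC1 gate, by a median log2 ratio of -0.93 in E2 and -1.06 in placebo. Id2, the inhibitor of E-proteins that conventional dendritic cells use, stood at 20.9 and 17.8 CPM in members and 716 and 872 CPM in the cDC1 gate.

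Between the libraries, few genes of the members passed 2-fold, a count that depends on the constant added. Of 5337 genes, 16 were at least 2-fold higher in E2 members (0.3% of those measured) and 5 at least 2-fold lower (0.0937%), on log2((CPM E2 + 50)/(CPM placebo + 50)), a scale that compresses ratios of weakly expressed genes. With 10 CPM added in place of 50, 88 were higher and 83 lower, and with the Scrublet-marked barcodes left out, 7 were higher. The median over all genes was -0.04, with 2375 above 0 (44.5%) and 2962 below (55.5%). Under the scaling factors of edgeR (TMM) or of median ratios, the split was 3158 above and 2179 below, so small shifts of whole lists carry no direction. Leaving out, for each gene, the member with the most UMIs in each library kept 9 of the 16 and 2 of the 5 past 2-fold. Among core members, 3 of the 16 (Slpi, BC018473 and Ptcra) and 5 of the 5 stayed past it.

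**Figure D3:**
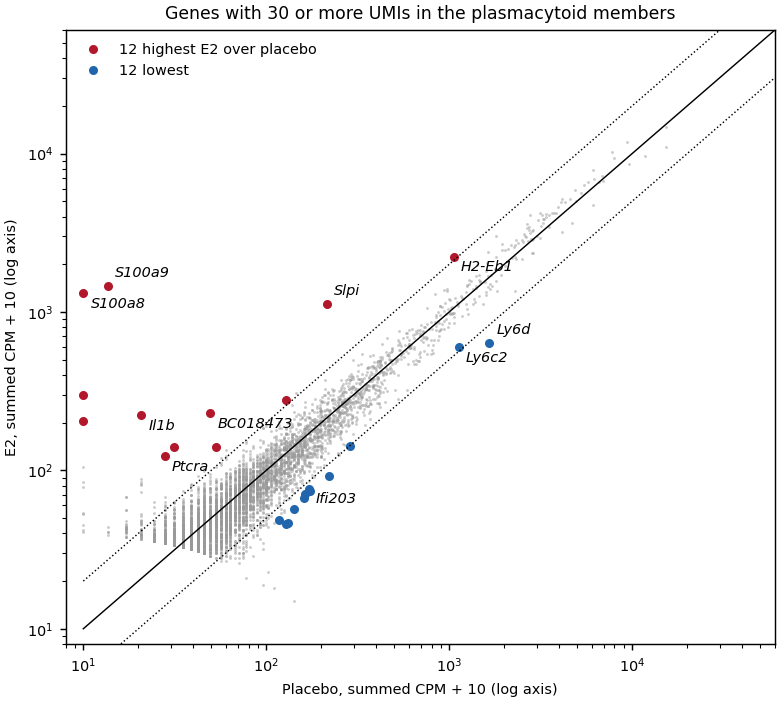
Summed level of each gene with 30 or more UMIs in the plasmacytoid members, E2 on the vertical and placebo on the horizontal log axis (CPM + 10), with solid and dotted lines at equality and 2-fold. Slpi at 1114 CPM in E2 and 203 CPM in placebo lies above the band, Ly6d at 623 and 1649 CPM below it, and most genes lie between the dotted lines.

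Slpi, which encodes a secreted inhibitor of neutrophil serine proteases (chr2:164354070-164389095, − strand, GENCODE M21 on GRCm38), was carried by many cells. It had 1118 UMIs in E2 members, 0 to 93 per cell with a median of 3.5, and 57 UMIs in placebo members, 0 to 10 per cell with a median of 0. Of E2 members 74 of 98 held it, and 28 held 10 or more UMIs, against 13 of 30 and 2 in placebo. The summed level was 1114 CPM in E2 and 203 CPM in placebo, 5.47-fold higher (4.19 to 7.27), with a log2 ratio of 2.20 over all members and 2.21 in the core. The per-cell ranges of the libraries overlapped, since cells without Slpi occurred in both. The Slpi promoter shown above, placed by RefSeq, lies inside the GENCODE span of the gene and not at the start of that span.

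At equal depth the shares lay in the same order, with intervals that overlap. With each barcode thinned to 2000 UMIs, which left out 1 E2 and 2 placebo members, Slpi was found in 53.6% of 97 E2 members (43.2 to 63.8%) and in 25% of 28 placebo members (10.7 to 44.9%). Unthinned, the shares were 75.5% and 43.3%. In the T gate, whose cells should lack Slpi, the thinned shares were 1.74% in E2 and 1.38% in placebo, from medians of 4714 and 4847 UMIs. Slpi is also a neutrophil RNA, and the neutrophil list summed to 3030.4 CPM in E2 and 17.8 CPM in placebo members. In the 85 E2 and 29 placebo members with no UMI of S100a8 or S100a9, Slpi was 1027 and 197 CPM. The difference in Slpi was not found in the cDC1 gate (3.33 CPM in E2, 5.27 CPM in placebo) and ran the other way in the B gate (22.2 and 92.8 CPM), while the T gate (45.3 and 14.0 CPM), cDC2 gate (22.2 and 4.36 CPM) and macrophage gate (41.9 and 19.3 CPM) were higher in E2 at far lower levels. Whether these differences differ from each other was not tested.

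BC018473, annotated in GENCODE as an antisense RNA of no stated function (chr11:116752167-116759373, + strand), showed the same direction. It had 220 UMIs in E2 members, 0 to 10 per cell with a median of 2, and 11 UMIs in placebo members, 0 to 4 per cell with a median of 0. It was present in 70 of 98 E2 members and in 5 of 30 placebo members. The level was 219 CPM in E2 and 39.3 CPM in placebo, 5.58-fold higher (3.06 to 11.3), with log2 ratios of 1.59 over all members and 1.66 in the core. Thinned shares were 27.8% (19.2 to 37.9%) in E2 and 3.57% (0.0904 to 18.3%) in placebo. The T gate also carried this RNA, in 18.0% and 12.4% of thinned cells, and so gives no background level. Its level was higher in E2 in each of the other 6 gates, for example at 93.2 and 11.8 CPM in the B gate, 50.8 and 18.9 CPM in the cDC2 gate and 22.2 and 5.403 CPM in the macrophage gate. Across the 85 E2 core members the Spearman correlation of Slpi and BC018473 UMIs was 0.26, and across the 26 placebo core members 0.43, in cells that share a library and differ in depth.

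**Figure D4:**
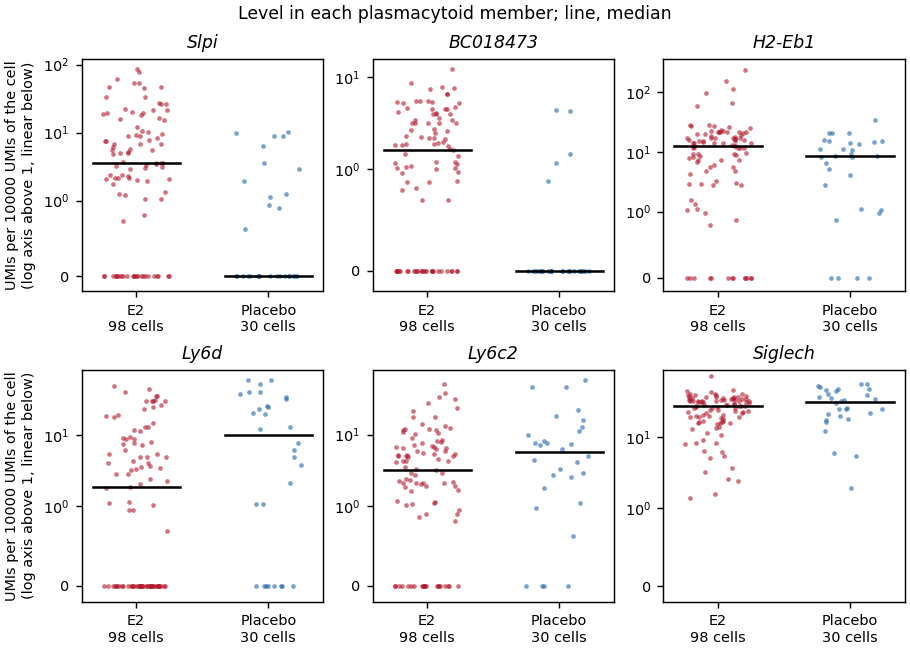
Level in each plasmacytoid member, as UMIs per 10000 UMIs of the cell (log above 1, linear below), for E2 (98 cells) left of placebo (30 cells), with a line at the median. Slpi and BC018473 have medians above 0 in E2 and at 0 in placebo, Ly6d has the higher median in placebo, and Siglech, which the rule used, is alike in both.

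Several of the other 12 highest genes in E2 members rested on a few barcodes. S100a9 and S100a8, the calgranulins of neutrophils, had 1462 and 1308 UMIs in E2, of which 1010 and 912 lay in 1 barcode, and 1 and 0 UMIs in placebo. S100a9 was in 9 and S100a8 in 6 E2 members. S100a8 was 122-fold above a floor of 3 counts over all placebo members, and its ratio interval had a lower edge of 98.8. The log2 ratios of 4.81 and 4.76, which for genes at 0 depend on the added 50, were 0.15 and 0.07 in the core, which leaves out 2 barcodes with 10 or more of these UMIs. The neutrophil chemokine Cxcl2 was 289 CPM in E2 and 0 in placebo, with 234 of 290 UMIs in 1 barcode. The interferon-induced membrane gene Ifitm1 was 196 CPM and 0, in 9 E2 members. Cxcl2 and Ifitm1 were 27.0-fold and 18.3-fold above the same floor, with lower interval edges of 21.8 and 14.8. Their log2 ratios were 0.13 and 0.16 in the core. Of the 16 genes of the neutrophil list, 13 had a UMI in E2 members and 4 in placebo, while Ly6g, Ngp and Camp were at 0 in both. The part of neutrophil RNA in these 4 results was not tested. Il1b, the inflammatory cytokine interleukin 1 beta, stood at 213 CPM in E2 and 10.7 CPM in placebo, in 16 and 3 members, with a log2 ratio of 2.12 over all members and 0.44 in the core. Dusp1, a phosphatase that restrains MAP kinases, was 131 and 21.4 CPM (1.34, core 0.56).

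Ptcra, the pre-T cell receptor alpha chain and a classical marker of human plasmacytoid cells, kept its direction in the core but was also concentrated. It had 113 UMIs in 13 E2 members, 69 of them in 1 cell, and 5 UMIs in 3 placebo members. The log2 ratio was 1.26 over all members, 1.41 in the core and 0.72 without the cell with most UMIs. Calm4, a calmodulin-related gene, was 131 and 42.8 CPM (0.96, core 0.73), and Hmgb2, a chromatin protein, was 267 and 118 CPM (0.92, core 0.49).

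Ly6d had the lowest log2 ratio of the 12 lowest genes. It is a GPI-anchored protein that marks lymphoid progenitors committed towards B cells and plasmacytoid precursors (chr15:74762056-74763620, − strand). It had 0 to 38 UMIs per E2 member with a median of 2, and 0 to 61 per placebo member with a median of 7. The summed level was 623 CPM in E2 and 1649 CPM in placebo, 2.65-fold lower (2.34 to 2.99), a log2 ratio of -1.34 and -1.25 in the core. It was held by 56 of 98 E2 members and 22 of 30 placebo members. The thinned shares, 44.3% (34.2 to 54.8%) in E2 and 64.3% (44.1 to 81.4%) in placebo, overlapped in their intervals. The interval of the level counts pooled UMIs and leaves out the spread between cells. Its width therefore cannot be set against that of the shares. The T gate lay at 0.232% and 0.198%. In the B gate Ly6d was 1491 CPM in E2 and 2549 CPM in placebo.

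Ly6c2, a relative of Ly6d that marks monocytes and many plasmacytoid cells, was lower as well. It was 588 CPM in E2 and 1117 CPM in placebo (log2 -0.87), in 77 of 98 and 26 of 30 members, with thinned shares of 46.4% and 75%. Cd8a, the CD8 alpha chain that some mouse plasmacytoid cells carry, was 35.9 and 118 CPM (-0.97), in 17 and 10 members. Ly6a, the stem and activation antigen Sca-1, was 184 and 336 CPM (-0.72). The sodium pump subunit Atp1b3 was 81.7 and 211 CPM (-0.98), but 26 of its 59 placebo UMIs lay in 1 cell, and without the dominant cells it was -0.46. The spectrin Sptbn1 was 36.9 and 121 CPM (-0.98) and the transcription elongation inhibitor Hexim1 63.8 and 164 CPM (-0.91). The deubiquitinase gene Usp25 (-0.90), the actin regulator Lrrc16a (-0.88), Fam43a (-0.85) and the channel gene Calhm2 (-0.82) were also among the 12 lowest, as was Ifi203, described below. Ctse, the endosomal protease cathepsin E, also passed 2-fold at 12.95 and 92.8 CPM (-1.18), in 12 of 98 and 14 of 30 members. It lay under the level the naming rule asked for and was picked after its values were seen.

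The MHC class II genes, which load and present peptides to CD4 T cells, had moderately higher summed levels in E2 members, led by H2-Eb1. Of 12 measured genes of the list, 10 were higher and 2 lower, with a median log2 ratio of 0.33 (0.21 in the core and 0.45 under TMM, beside -0.04 over all genes). H2-Eb1, a class II beta chain (chr17:34305867-34316674, + strand), had 0 to 333 UMIs per E2 member with a median of 12 and 0 to 55 per placebo member with a median of 8. Its level was 2213 CPM in E2 and 1049 CPM in placebo, 2.11-fold higher (1.87 to 2.39). Of its 2221 UMIs in E2 members, single barcodes held 333, 234, 221, 214 and 145, and the barcode with 221 stayed in the core. H2-Eb1 was found in 85 of 98 E2 members and 26 of 30 placebo members. The log2 ratio was 1.04 over all members, 0.57 in the core and 0.25 when barcodes were thinned before the rule was applied. H2-Ab1 was 2376 and 1617 CPM, H2-Aa 2445 and 1935 CPM and Cd74 7906 and 6133 CPM. Their medians per cell in E2 and placebo were 15 and 12 UMIs for H2-Ab1, 20 and 15 for H2-Aa and 58 and 55.5 for Cd74. Ciita, the master activator of class II genes, was not higher, at 31.9 CPM in E2 and 39.3 CPM in placebo, and the peptide exchanger H2-DMa stood at 583 and 607 CPM. The T gate, which should carry little class II RNA, also held more H2-Eb1 in E2, 813 CPM against 337 CPM in placebo. Its part in the members' result was not tested.

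Members were not uniform in class II RNA. In the core, 16 of 85 E2 members (18.8%, 11.2 to 28.8%) and 7 of 26 placebo members (26.9%, 11.6 to 47.8%) had 20 or fewer Cd74 UMIs, shares whose intervals overlap. These Cd74-low cells had 182 CPM of H2-Aa in E2 and 104 CPM in placebo, against 2518 and 2330 CPM in the Cd74-high cells. They held more Ly6c2 in both libraries, at 1296 CPM in E2 and 2566 CPM in placebo, against 503 and 666 CPM in Cd74-high cells. Klk1 was 827 and 519 CPM in them, against 1689 and 1256 CPM. Slpi was higher in E2 on both sides, at 944 and 193 CPM in Cd74-low and 1266 and 231 CPM in Cd74-high cells. Ly6d was lower in E2 on both sides, at 866 and 1928 CPM in Cd74-low and 705 and 1772 CPM in Cd74-high cells.

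Type I interferon response genes had lower summed levels in E2 members, with those past 2-fold high in few placebo cells. Of 50 genes in the list, 20 had 30 or more UMIs over both libraries, of which 19 were lower and 1, Ifitm3, was higher. The median log2 ratio was -0.41 (-0.47 in the core, -0.30 with 17 lower under TMM, beside -0.04 over all genes). Ifi203, an interferon-induced DNA-binding protein with close paralogs that may share its reads, was 66.7 and 161 CPM (-0.85, and -0.40 without the dominant cells). It was found in 45 of 98 E2 members and 10 of 30 placebo members, and 2 placebo members held 10 or more UMIs. Irf7, the factor that drives interferon alpha genes, was 86.7 and 149.9 CPM, and the receptor chain Ifnar2 280 and 393 CPM, while Ifnar1 was 232 and 236 CPM. Genes past 2-fold were Isg15, a ubiquitin-like modifier (4.98 and 132 CPM), its protease Usp18 (7.97 and 99.95 CPM) and the Schlafen gene Slfn5 (8.97 and 85.7 CPM). They had 24 of 37, 15 of 28 and 14 of 24 placebo UMIs in 1 cell. Isg15 and Usp18 each had 10 or more UMIs in 2 of 30 placebo members and were at 0 in 27 and 26. For these 2 genes, leaving out the dominant cell takes out only 1 of the 2 high placebo cells. Without the dominant cells the list's median was -0.20 (0.03 over all genes), with 16 of 20 lower. Isg15 was higher in E2 in the mature dendritic gate (240 and 45.6 CPM).

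**Figure D5:**
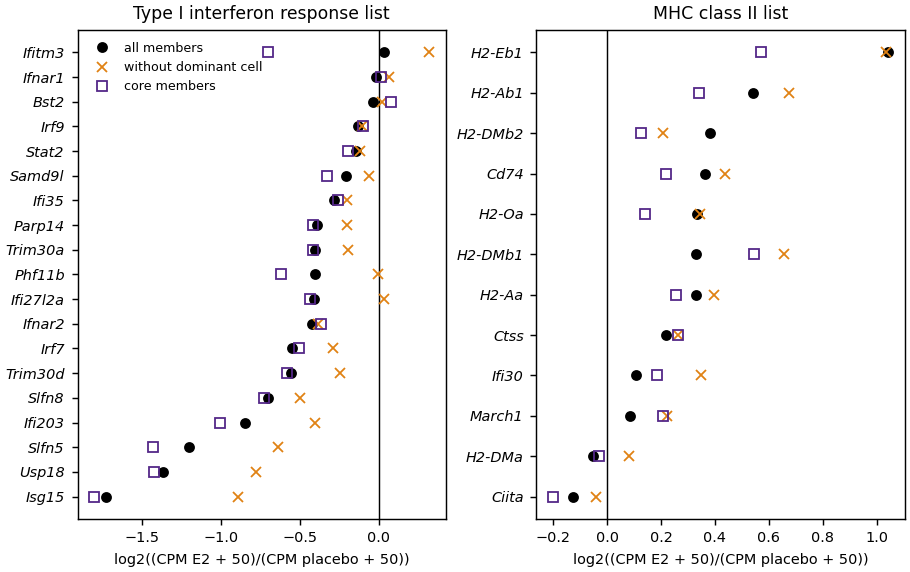
Log2((CPM E2 + 50)/(CPM placebo + 50)) of 19 of the 20 measured genes of the type I interferon response list and all 12 of the MHC class II list, over all members, without the cell holding most UMIs of the gene, and in core members. Isg15, Usp18 and Slfn5 move towards 0 without that cell, and 10 of 12 class II genes lie right of 0.

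No type I or III interferon ligand had enough UMIs to be compared. Of the 21 ligand genes of the list, 0 reached 30 UMIs over both libraries, which does not mean that none had a UMI. Of the sensing list, 33 of 46 genes were measured, 18 higher and 15 lower, with a median of 0.01. Over all genes, 44.5% were higher, with a median of -0.04. Tlr7, the endosomal receptor for single-stranded RNA, was 89.7 CPM in E2 and 136 CPM in placebo, a ratio of 0.661 (0.448 to 0.993), with thinned shares of 16.5% and 25%. Tlr9, the receptor for CpG DNA, had 5 and 2 UMIs, which allows no comparison at this depth. Unc93b1, the chaperone that brings both receptors to endosomes, was 757 and 839 CPM, and the adaptor Myd88 60.8 and 60.7 CPM. Rnaset2a, an RNase that makes ligands for these receptors and has a near-identical copy, was 260.0 and 436 CPM (-0.65), while that copy, Rnaset2b, was 318 and 382 CPM.

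Chemokine RNA was dominated by Ccl4, which attracts T cells and monocytes. It was 4189 CPM in E2 members, up to 331 UMIs in 1 cell, and 3830.3 CPM in placebo members, up to 126, against 614 and 379 CPM in the cDC1 gate. Ccl3 was 198 and 232 CPM. Il12a, the p35 chain of interleukin 12, was 72.7 and 78.5 CPM in members and 0 in both cDC1 gates. Of the 26 genes of this list 5 were measured, 1 higher and 4 lower (3 and 2 under TMM).

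Of 34 transcription factors of the lineage outside the rule, 23 were measured, 16 lower and 7 higher, with a median of -0.21, beside 55.5% lower and -0.04 over all genes (14 lower and a median of -0.05 under TMM). Tcf4 itself, used by the rule, was 1351 CPM in E2 and 2270.3 CPM in placebo, with 1 to 33 UMIs per E2 member (median 14) and 3 to 41 per placebo member (median 21), and Runx2 was 532 and 750 CPM. Klf4 was 80.7 and 171 CPM (-0.76), Stat3, which relays FLT3 and interleukin 10 signals, 258 and 393 CPM (-0.52), and Zeb2 253 and 361 CPM (-0.44). Spib, an ETS factor of plasmacytoid and B cells, was instead higher, at 431 and 382 CPM. Tcf4 was lower in E2 also in the cDC2 gate, at 146 and 323 CPM, but higher in the T gate, at 28.1 and 13.3 CPM. The other gates lay closer together, with ratio intervals that include 1. They were 36.4 and 34.8 CPM in the cDC1 gate, 179 and 213 CPM in the mature dendritic gate, 235 and 274 CPM in the B gate and 139 and 134 CPM in the macrophage gate.

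Surface and signalling receptors showed single differences rather than a shared one. Of 44 identity genes outside the rule, all measured, 18 were higher and 26 lower (27 and 17 under TMM). Over all genes, 44.5% were higher and 55.5% lower, and 59.2% were higher under TMM. Lag3, an inhibitory receptor that binds MHC class II and that mouse plasmacytoid cells carry, was 248 CPM in E2 and 129 CPM in placebo, a ratio of 1.93 (1.36 to 2.82), in 74 of 98 and 17 of 30 members. Its thinned shares were 38.1% and 35.7%, and in the T gate it was lower in E2, at 16.8 and 47.1 CPM. Klk1 was 1351 and 964 CPM (1.23 to 1.603). Fcer1g, a signalling adaptor of Fc receptors, was 1297 and 825 CPM (1.57-fold, 1.37 to 1.82), and Tyrobp, the adaptor of SIGLEC-H, 4901 and 4084 CPM. Of homing receptors, Ccr2 was 314 and 225 CPM and Ccr9, used by the rule, 972 and 1035 CPM. Of cytokine receptors, Il7r was 317 and 218 CPM and Flt3, the growth factor receptor that these cells need, 245 and 339 CPM.

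RNA of estrogen receptor alpha was not seen in the members. Its gene, Esr1, had 0 UMIs in members of both libraries. At 2000 UMIs per cell this allows a share of up to 3.09% of E2 and 10.7% of placebo members with a UMI, so low expression was not detectable at this depth. In the macrophage gate Esr1 was found, at 5.27 CPM in E2 and 8.75 CPM in placebo. Of 37 genes of nuclear receptors, their co-regulators and hormone response genes, 18 were measured, 7 higher and 11 lower (10 and 8 under TMM). Over all genes, 44.5% were higher (59.2% under TMM). Nr3c1, the glucocorticoid receptor, was 129 and 114 CPM, and its target Tsc22d3 144 and 146 CPM. The immediate-early receptor Nr4a1 was 460.2 CPM in E2 and 478 CPM in placebo.

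Of 30 measured stress and immediate-early genes, 20 were higher in E2 members and 10 lower, with a median of 0.16, beside 44.5% higher and -0.04 over all genes. The split was 18 and 12 in the core, and the median was 0.28 under TMM, where 59.2% of all genes were higher with a median of 0.05. Nfkbia, the inhibitor of NF-kappaB that NF-kappaB induces, was 296 and 136 CPM (0.90), with a median of 1 UMI per cell in both libraries. It had 10 or more UMIs in 7 E2 members and 0 placebo members. Junb was 1047 and 746 CPM (0.46) and Ier5 529 and 325 CPM (0.63), while Klf4 and Btg1 (1145 and 1371 CPM) ran the other way. Of 16 measured cholesterol genes, 12 were lower and 4 higher, with a median of -0.24, beside 55.5% lower over all genes (10 of 16 and -0.10 under TMM). Of the synthesis genes, Cyp51 was 75.7 and 161 CPM (-0.74), Fdps 224 and 328 CPM and Hmgcs1 84.7 and 132 CPM. Apoe, an abundant macrophage RNA, was 142 and 67.8 CPM. It stood at 14262 and 9036 CPM in the macrophage gate. The other lists had small shifts, several of which change sign with the scaling. MHC class I genes stood at a median of -0.11 (9 higher, 12 lower, and -0.01 under TMM), with H2-D1 at 1974 and 1406 CPM and B2m, the class I light chain, at 1454 and 1703 CPM. The interferon gamma list stood at -0.21 (5 higher, 7 lower, and -0.13 under TMM), with Irf1 at 258 and 403 CPM. Checkpoint genes stood at -0.01 (0.08 under TMM), trafficking receptors at -0.10 (0.03 under TMM), cytokine receptors at -0.02 (0.10 under TMM), and inhibitory receptors with their adaptors at -0.06 (0.06 under TMM). The lymphoid list stood at -0.12 (7 higher, 9 lower, and -0.02 under TMM), transitional dendritic genes at -0.24 (-0.10 under TMM) and apoptosis regulators at 0.03 (0.13 under TMM). Of 32 cell cycle genes 7 were measured, with a median of 0.43 over all members and 0.08 in the core. Proteasome and housekeeping genes stood at 0.11 (0.02 in the core). Oxidative phosphorylation genes stood at a median of 0.03, hypoxia and glycolysis genes at -0.01 and secretory pathway genes at -0.01. Maturation genes stood at 0.05, with 9 of 28 measured, and Ccr7 had 5.98 CPM in E2 members and 0 in placebo members.

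Of the marker lists of other cells, the neutrophil list was the highest in E2 members, at 3030.4 CPM against 17.8 CPM in placebo members, with 0 to 2122 UMIs per E2 member (median 0) and 0 to 1 per placebo member (median 0). The conventional dendritic list of 18 genes summed to 1206 CPM in E2 and 1396 CPM in placebo members, with 2 to 87 UMIs per E2 member and 0 to 44 per placebo member. The macrophage list summed to 1510.2 and 1756 CPM, with C1qc, Adgre1, Fcgr1, Vcan and Trem2 at 0 in both. Ly6c2, which also marks many plasmacytoid cells, gave 588 and 1117 CPM of these sums. Of the list's 21 genes, 15 had a UMI in the 98 E2 members and 8 in the 30 placebo members. The 6 measured genes had a median log2 ratio of 0.55 (0.38 in the core), with 4 higher in E2 and 2 lower. The B and plasma cell list summed to 832 and 957 CPM, nearly all of it Ighm (761 and 885 CPM), with Ms4a1 and Pax5 at 0 in both. The T and NK list summed to 1097 and 853 CPM, with Trac, Trbc1 and Cd247 at 0 in both. Of its 17 genes, 6 had a UMI in E2 members and 5 in placebo members, with medians of 9 and 7 UMIs per member. It reached 20 or more UMIs in 16 E2 and 4 placebo members. Its 3 measured genes were all higher in E2, with a median log2 ratio of 0.45 (0.43 in the core). The mast cell and basophil list summed to 35.9 and 10.7 CPM and the non-immune list to 240.1 and 203 CPM.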

How the data were processed

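The deposited files give whole-number UMI counts per gene and barcode, made by the authors with Cell Ranger 3.1.0 on mm10, per the submitters' processing notes. The 2 libraries, 1 for each of 2 groups, held 5791 barcodes (E2) and 3505 barcodes (placebo), of which 26 and 15 with under 200 genes were removed. Members and the 32 gene lists were chosen with earlier results of these data known. Counts were summed over the members of a library and scaled to CPM. Ratios were given as log2((CPM + 50)/(CPM + 50)) for genes with 30 or more UMIs over both libraries. Edges of ratios came from the exact binomial interval conditional on the total, and of shares from the Clopper-Pearson interval, at 95%. The limit that a count of 0 allows is 3 counts.

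Other gates required 4 or more UMIs of Cd79a with a second B cell marker (B), 4 of CD3 genes (T) or 6 of C1qa and C1qb (macrophages). The named genes were the 12 highest and 12 lowest log2 ratios among genes with 100 CPM in a library, a UMI in 5 or more members of the higher library and a ratio interval leaving out 1. Ribosomal and mitochondrial genes, receptor variable segments, unnamed gene models and the rule's genes were left out of this choice. The 20 leading genes against other barcodes and genes of the lists could be named too. Some genes that these rules would name are not reported here. Near-identical genes (Klk1 and its relatives, the Iglc, Ifi200, Bcl2a1, Ly6 and H2 families) may split or share reads and are uncertain. Doublets were marked as the highest Scrublet scores, at 0.8% per 1000 barcodes, and kept, with their removal as an alternative. Other alternatives changed the Siglech limit, thinning, scaling, the added constant and the filter on low counts, and left out the dominant cell of each gene. The summing and interval code was tested on simulated data. Python 3.11.15, numpy 2.4.6, scipy 1.17.1, pandas 2.3.3, scanpy 1.11.5, matplotlib 3.10.9, R 4.3.3 and edgeR 4.0.16 (for TMM factors only) were used.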

Additional observations from a re-analysis of the deposited data

Results flagged for a closer look

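For 9 of the named genes, the log2 ratio of E2 over placebo had the opposite sign in another gate, with a size of at least 0.5 there and both counting intervals leaving out 1. Opposite signs of smaller size in other genes are not listed. With 1 library per group these differences were not tested. In the cDC1 gate S100a9 was -1.47 (63.9 CPM in E2, 266 CPM in placebo), S100a8 -0.999 (72.1 and 194 CPM), Cxcl2 -0.75 (63.4 and 141 CPM), Ifitm1 -1.24 (26.6 and 131 CPM) and Il1b -1.11 (361 and 838 CPM), all of which were higher in E2 members through few barcodes. In the B gate Slpi was -0.98 (22.2 and 92.8 CPM), Cxcl2 -1.72 (178 and 699 CPM) and Hmgb2 -2.10 (302 and 1453 CPM), while Lrrc16a was 0.55 (53.3 and 20.6 CPM). Ifi203 was lower in the sum over E2 members, though a larger share of them held it (45.9% against 33.3% in placebo). Its log2 ratio was 0.76 in the cDC1 gate (50.5 and 9.49 CPM), 0.55 in the mature dendritic gate (37.3 and 9.51 CPM) and 0.51 in the B gate (209 and 131 CPM).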

How the results depend on the processing

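No paired analysis was possible because each group is 1 library. The ratio of plasmacytoid shares stayed between 1.88 and 2.01 over the alternatives. The count of genes 2-fold higher in E2 members, 16, was 7 with doublets left out, 88 with 10 CPM added, 8 with 100 CPM added, 10 among genes with 100 or more UMIs and 4 in the core. The count of genes 2-fold lower, 5, was 83 with 10 CPM added, 2 with 100 CPM added, 1 among genes with 100 or more UMIs, 39 by the mean of single-cell CPM, 8 with barcodes thinned before the rule, 9 with members thinned before summing, 2 without the dominant cell and 9 in the core. The core was chosen after seeing the data. The interferon list median of -0.41 was -0.20 without the dominant cell (beside 0.03 over all genes) and -0.11 with members thinned before summing, which left 5 genes. The MHC class II median of 0.33 was 0.45 under TMM, 0.45 under median ratios and 0.42 with members thinned. Against all other barcodes, 10 CPM added gave 479 genes higher and 162 lower, instead of 201 and 106. Without thinning, the E2 shares were 75.5% for Slpi, 71.4% for BC018473 and 57.1% for Ly6d. Of the 24 named genes, 23 kept their sign in all 16 alternatives, and Ifitm1 was -0.66 with 2 or more Siglech UMIs as the limit. The cause was not tested. With 30 placebo members and 280136 UMIs, genes of few UMIs are imprecise.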
